A study of Mus musculus with 12 samples.

Results

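The BCL2 family decides whether a cell commits to the mitochondrial route of apoptosis, and 9 of its genes were followed here in mouse macrophages given IL4 with or without emodin. They were given as a list of names, *Bcl2*, *Bcl2l1*, *Mcl1*, *Bcl2l11*, *Bad*, *Bak1*, *Bid*, *Bmf* and *Bik*, and no measured value enters the rule. The list was nevertheless chosen with earlier results of these data known. Counts of members or of pathway genes set beside all genes are therefore a description. The family members best known as direct p53 targets stand outside the list and are described after it. A probe was taken as a member's when its RefSeq transcript belonged to that gene, which gave 12 of the 55681 probes on the array and 9 of its 20887 genes with a symbol. Some group had all 4 of its arrays well above background for 11 of these probes and 8 of the genes, which were tested among 20860 genes. Of those, 13193 had a symbol, and the others were counted by the transcript name of the probe. Shares of all genes given below are over both kinds. *Bik* did not pass.

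The survival proteins of the family (BCL2, BCL-XL from *Bcl2l1*, and MCL1) hold the effectors BAX and BAK in check at the outer mitochondrial membrane. BH3-only proteins such as BIM (*Bcl2l11*), BID, BAD, BMF and BIK occupy the survival proteins or act on the effectors directly, and freed effectors form pores that release cytochrome c to the apoptosome and its caspases. Much of this control lies outside transcript level, in splicing, phosphorylation, cleavage and protein turnover, none of which the arrays measure.

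Macrophages of C57BL/6 mice, labelled WT and peritoneal and 8 weeks old, were freed of non-adherent cells, kept overnight without serum and then given vehicle (control), IL4 (10 ng/ml), or the same IL4 dose together with 50 µM emodin, an anthraquinone found in plants. Each group had 4 arrays, replicates 1 and 2 from females and 3 and 4 from males, and emodin is seen here only together with IL4. The series title asks about emodin and the alternative activation set off by IL4. The sample descriptions give 6 h of treatment where the protocol says overnight, the series' design text names blood leukocytes where the samples name peritoneal macrophages, and neither point could be settled. Nothing in the labels tells if mice were pooled for an array, and p-values therefore cover only the spread among these 12 samples, which may in part be technical.

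Values are log2 intensity minus the 75th percentile of the array, so that each direction is relative to that percentile and 1 unit is a 2-fold difference. That percentile was 730 ± 74.0 on control arrays, 776 ± 24.5 on IL4 arrays and 488 ± 31.4 on emodin arrays (SD, n = 4 each), lower with emodin than with IL4 (exact permutation test, two-sided, p = 0.0286, the smallest that 4 against 4 arrays can give). Spike-in controls, synthetic RNAs added before labelling, read higher on the emodin arrays (mean log2 signal 12.03 against 11.63, exact permutation p = 0.0286, and 0.0367 adjusted over the 9 such tests, as for the percentile). Only 6 spike-in probes were used, and the SD of their mean over 4 arrays was 0.09 with emodin, 0.22 with IL4 and 0.19 in control. Scaled to the spike-ins, the median gene lay -0.91 on the log2 scale below its IL4 level, against 0.17 above it with the percentile. Members whose direction turns with that choice are named as such below. All emodin arrays lay on a slide of their own and all IL4 arrays in a slide row of their own, so emodin and slide, and IL4 and row, cannot be told apart. All 6 matched macrophage markers were above background on every array. With emodin against IL4, *Fcgr1* fell (-2.89 ± 0.17, limma adjusted p = 5.08e-08). So did *Mertk* (-0.57 ± 0.18, limma adjusted p = 0.0166) and *Csf1r* (-0.55 ± 0.12, 0.00120). *Lyz2* rose (0.32 ± 0.10, limma adjusted p = 0.0167), as did *Adgre1* (0.18 ± 0.08, 0.0483). *Itgam* was not called (0.15 ± 0.09). The summed level of 5 B cell markers (signal relative to the 75th percentile) was 1.15 to 2.16 on IL4 arrays and 0.354 to 0.548 with emodin (exact permutation p = 0.0286), with *Pax5* below background throughout. That of 6 neutrophil markers was 18.9 to 30.0 and 36.4 to 58.8 (p = 0.0286, same exact test). *Elane* carried most of that sum (1.26 ± 0.24 higher, limma adjusted p = 0.000700), while *S100a8*, the next brightest, differed by -0.29 ± 0.19 (0.187) and *S100a9* by 0.61 ± 0.41 (0.206). *Camp*, far dimmer than *Elane*, also rose (0.61 ± 0.14, limma adjusted p = 0.00187). The sum of 3 large peritoneal macrophage markers was 7.71 to 9.24 on IL4 arrays and at most 4.04 with emodin (exact permutation p = 0.0286). *Icam2* alone carried that fall (-1.59 ± 0.11, limma adjusted p = 2.49e-07), as *Gata6* differed by -0.21 ± 0.32 (0.576) and *Timd4* by 0.03 ± 0.40 (0.954). Of 6 T and NK cell markers, 4 were below background on all arrays. The 6 had a summed level of 4.20 to 4.72 on control arrays and 1.81 to 3.08 with IL4 (exact permutation p = 0.0286). *Cd3e* carried that fall (-0.95 ± 0.25, limma adjusted p = 0.0196), as *Lck* differed by -0.28 ± 0.23 (0.460). Macrophage markers summed to 616 to 634 on control arrays and 694 to 790 with IL4, and 4 eosinophil markers, with *Prg2* and *Epx* below background throughout, to 1.24 to 1.38 and 0.598 to 0.945 (both p = 0.0286, same exact test). *Siglecf* alone carried the eosinophil fall (-0.84 ± 0.12, limma adjusted p = 0.000467), as *Ccr3* differed by 0.28 ± 0.27 (0.539). Of the macrophage markers *Csf1r* rose with IL4 by 0.64 ± 0.12 and *Adgre1* by 0.29 ± 0.08 (limma adjusted p = 0.00230 and 0.0189), whereas *Fcgr1* fell by 0.57 ± 0.17 (0.0369), and *Lyz2* (-0.14), *Itgam* (-0.08) and *Mertk* (0.36) were not called. Over the 20 such tests of marker sums, each of these has a Benjamini-Hochberg adjusted p of 0.0816. In these bulk samples fewer cells of a type and less RNA per cell cannot be told apart, and the part of other cells in the members' values was not tested.

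The upstream sequences of 4 members are shown because these genes moved in opposite directions with the percentile scaling, *Bcl2l11* and *Bmf* with IL4 and *Bcl2* and *Bad* with emodin. Scaled to spike-ins, *Bcl2* and *Bad* both lay below IL4 (-0.39, not called, and -1.99). Each run is the 250 bases before the most upstream start that the RefSeq promoter table (build GRCm38.p6) lists for the gene, 5′ to 3′ on the gene's own strand, with matches to the searched motifs in capitals. The *Bcl2l11* run is chr2:128125788-128126037 on the plus strand, the *Bmf* run chr2:118549687-118549936 on the minus strand, the *Bcl2* run chr1:106714291-106714540 on the minus strand, and the *Bad* run chr19:6941611-6941860 on the plus strand.
Bcl2l11: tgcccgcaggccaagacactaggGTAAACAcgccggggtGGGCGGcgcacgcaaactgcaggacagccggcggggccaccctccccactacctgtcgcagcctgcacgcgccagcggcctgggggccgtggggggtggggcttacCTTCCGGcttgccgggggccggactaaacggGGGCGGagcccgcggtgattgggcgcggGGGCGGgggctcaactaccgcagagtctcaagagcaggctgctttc
Bmf: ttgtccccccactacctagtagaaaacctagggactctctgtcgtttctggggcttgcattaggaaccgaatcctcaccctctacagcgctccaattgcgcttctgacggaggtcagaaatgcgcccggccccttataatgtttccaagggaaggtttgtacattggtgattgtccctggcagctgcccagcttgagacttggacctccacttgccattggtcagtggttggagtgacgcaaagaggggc
Bcl2: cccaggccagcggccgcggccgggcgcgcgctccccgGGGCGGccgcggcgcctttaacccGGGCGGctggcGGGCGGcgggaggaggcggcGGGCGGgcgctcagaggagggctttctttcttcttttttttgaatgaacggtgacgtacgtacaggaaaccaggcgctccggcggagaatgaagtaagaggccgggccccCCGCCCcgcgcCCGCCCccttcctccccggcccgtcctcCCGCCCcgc
Bad: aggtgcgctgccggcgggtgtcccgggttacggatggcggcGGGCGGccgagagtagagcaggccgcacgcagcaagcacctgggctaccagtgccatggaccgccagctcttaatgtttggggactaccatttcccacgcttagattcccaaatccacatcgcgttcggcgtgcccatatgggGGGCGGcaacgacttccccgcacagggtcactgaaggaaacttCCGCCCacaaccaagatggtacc

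Capitals in the *Bcl2l11* run mark a forkhead core (GTAAACA, at -227 to -221 relative to the start, a motif found in 3.17% of 32851 RefSeq promoters of the same length), an ETS core read on the other strand (CCGGAAG, 6.91% of promoters) and 3 GC boxes (GGGCGG, 32.7% of promoters). The *Bcl2* run holds 7 GC boxes, 3 of them on the other strand, and the *Bad* run holds 3. No searched motif was found in the *Bmf* run. Both strands were searched for these and for STAT6 (TTC and GAA with 4 bases between, 5.85% of promoters), other STAT (TTCNNNGAA, 7.02%), E-box (CACGTG, 6.02%), cAMP response (TGACGTCA, 1.55%), AP-1 (TGANTCA, 6.75%), NRF1 (0.782%) and NF-kB (7.25%) sites. Over the 14 promoters of the 8 members in the table, none held a match to the STAT6 or other STAT letters, and GC content ran from 47.6% to 74.8%, against a median of 52.4% over all promoters. A match is a run of letters and not a measured binding site.

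With IL4 alone the members differed in direction. *Bcl2l11* rose, *Bmf*, *Bcl2l1* and *Mcl1* fell, and *Bid*, *Bad*, *Bak1* and *Bcl2* did not pass the test. That is 4 of 8 called by limma at an adjusted p below 0.05, where 17.5% of all tested genes were called, and by direction 1 higher (8.97% of all genes) and 3 lower (8.55%). The groups did not overlap for 5 of the 8, against 24.9% of all genes, and only *Bmf* moved at least 2-fold, as 3.95% of all genes did. The members' median log2 difference was -0.22 and that of all genes -0.03.

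Emodin on top of IL4 was followed by falls in *Bid*, *Bmf*, *Bad*, *Mcl1* and *Bak1* and rises in *Bcl2l1* and *Bcl2*. The count of 7 of 8 called stands beside 65.9% of all genes, and by direction 5 of 8 were lower where 26.5% of genes were, and 2 higher where 39.4% were. Groups did not overlap for 7 of the 8 (60.4% of all genes). With so large a share of all genes called, the members' count alone sets them little apart. Their sizes are likewise given as a description. The 3 that moved at least 2-fold, *Bid*, *Bcl2l1* and *Bmf*, compare with 18.3% of all genes past 2-fold, and the members' median was -0.27 against 0.17 for all genes.

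Against vehicle control, IL4 with emodin left *Bcl2l11*, *Bcl2* and *Bcl2l1* higher and *Bmf*, *Bid*, *Bad* and *Mcl1* lower, 7 of 8 where 62.9% of all genes were called. The 3 rises stand beside 37.3% of all genes and the 4 falls beside 25.6%. Differing at least 2-fold were *Bmf*, *Bid*, *Bcl2l11* and *Bad*, 4 of 8 against 16.6% of all genes, and the groups did not overlap for 6 of 8 (54.3% of all genes). This comparison shares its emodin arrays with the comparison to IL4 and its control arrays with the IL4 comparison, so the 3 sets of values are not independent of each other.

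**Figure D1:**
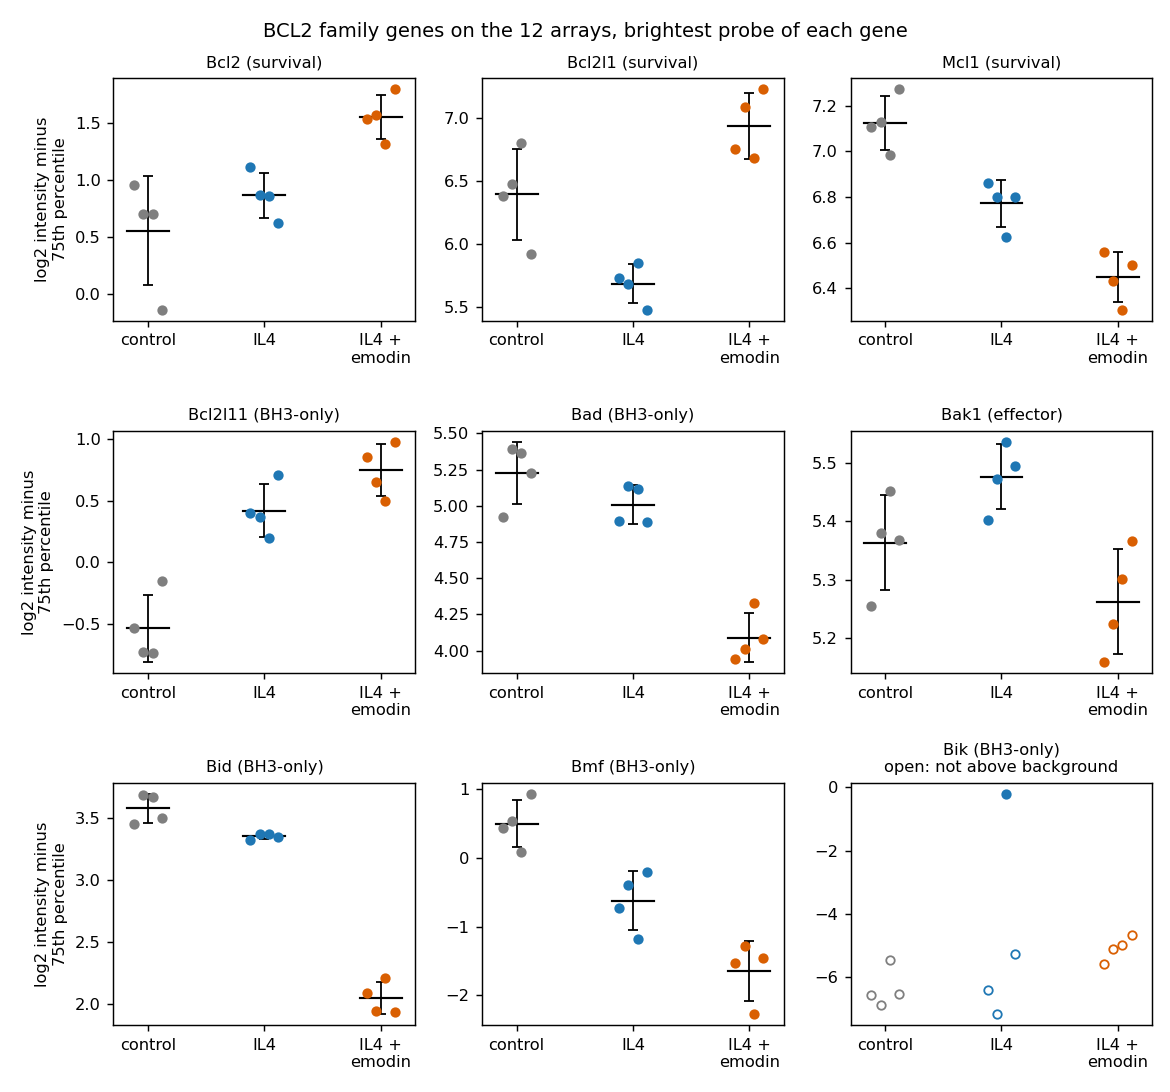
Level of each member's brightest probe on the 12 arrays (y axis, log2 intensity minus the array's 75th percentile, a separate scale per gene), with a horizontal line for the mean and a bar for the SD of 4 arrays. *Bid* on emodin arrays sits between 1.94 and 2.21, below every IL4 and control array, while the *Bik* panel has no mean because 11 of its 12 points (open) were not above background.

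Of the survival genes, *Bcl2* gives the founding protein of the family, named for the B cell lymphoma translocation that activates it. Its control arrays read 0.95, 0.70, 0.70 and -0.14, its IL4 arrays 1.11, 0.87, 0.86 and 0.62, and its emodin arrays 1.54, 1.56, 1.31 and 1.79. All emodin arrays lay above all others, and control and IL4 arrays overlapped, with control replicate 4 lowest. The emodin group exceeded IL4 by 0.69 ± 0.21 (SE, 4 arrays per group, limma adjusted p = 0.0111) and control by 1.00 ± 0.21 (limma adjusted p = 0.00116). IL4 and control differed by 0.31 (95% interval -0.14 to 0.76, limma adjusted p = 0.349), and by 0.081 without control replicate 4. Both emodin differences depended on the scaling: with spike-ins *Bcl2* lay at -0.39 against IL4 and at 0.042 against control, neither called.

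*Bcl2l1* encodes BCL-XL in its long splice form and the shorter pro-death BCL-XS, forms that its probes are not known here to separate. The brighter of its 2 probes read 6.38, 6.47, 6.80 and 5.92 on control arrays, 5.73, 5.68, 5.85 and 5.48 on IL4 arrays, and 6.75, 7.08, 6.68 and 7.22 on emodin arrays. Every IL4 array lay below every array of the other groups, and emodin arrays overlapped control. IL4 lowered it by -0.71 ± 0.18 (limma adjusted p = 0.0163), 1.63-fold, and the dimmer probe by -0.74 ± 0.14 (0.00348). This call was lost without IL4 replicate 4 (limma adjusted p = 0.0510).

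Emodin with IL4 stood 1.25 ± 0.18 above IL4 for *Bcl2l1* (limma adjusted p = 6.61e-05), a 2.38-fold rise, and 1.52 ± 0.14 on the dimmer probe (2.22e-06). Against control the excess was 0.54 ± 0.18 (limma adjusted p = 0.0184) and 0.78 ± 0.14 on the dimmer probe (0.000492). The excess over control on the brighter probe was not called without control replicate 4 (0.0509), without emodin replicate 4 (0.0558) or after quantile scaling (0.17, limma adjusted p = 0.390), and it turned to -0.41 with spike-ins. The rise over IL4 kept its sign with spike-ins at 0.18 but was not called (limma adjusted p = 0.327).

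MCL1 is the short-lived survival protein on which many myeloid cells depend. The brighter *Mcl1* probe read 7.11, 7.13, 6.98 and 7.27 on control arrays, 6.86, 6.80, 6.62 and 6.80 on IL4 arrays, and 6.56, 6.43, 6.31 and 6.50 on emodin arrays. The 3 groups formed 3 separate steps downward, control highest and emodin lowest. IL4 differed from control by -0.35 ± 0.09 (limma adjusted p = 0.0156), and the dimmer probe by -0.49 ± 0.12 (0.0158). The brighter probe's call was lost after quantile scaling (-0.33, limma adjusted p = 0.0694), with spike-ins (-0.23, 0.396), without control replicate 4 (0.0503) and without IL4 replicate 3 (0.0521).

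The probes of *Mcl1* parted with emodin. The brighter one was lower than in IL4 by -0.32 ± 0.09 (limma adjusted p = 0.00626), whereas the dimmer one, which read 4.31, 4.34, 4.19 and 4.30 on IL4 arrays and 4.45, 4.54, 4.22 and 4.78 on emodin arrays, overlapped and differed by 0.21 ± 0.12 (limma adjusted p = 0.141). Their mean gave -0.055 (limma adjusted p = 0.637). The emodin difference of *Mcl1* thus rests on the choice of probe, and its size on the scaling, since the brighter probe lay at -0.69 with quantile scaling (limma adjusted p = 0.000248) and at -1.40 with spike-ins (1.37e-06). Against control the brighter probe was lower by -0.67 ± 0.09 (limma adjusted p = 3.44e-05) and the dimmer by -0.28 ± 0.12 (0.0652).

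**Figure D2:**
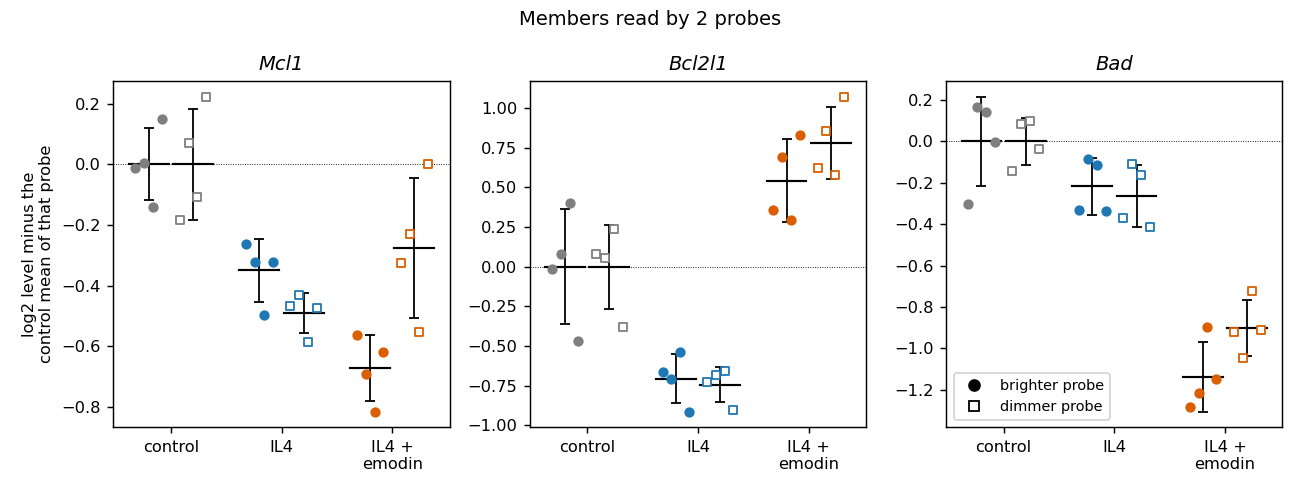
The 3 members read by 2 probes, each probe's log2 level minus its own control mean (y axis) in the 3 groups, filled circles for the brighter and open squares for the dimmer probe, with lines for means and bars for the SD of 4 arrays. The *Mcl1* probes fall together with IL4 and separate with emodin, while both *Bcl2l1* probes rise and both *Bad* probes fall with emodin.

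Whether the members' 2 probes differed in their response was tested directly over 3379 genes with at least 2 probes, a test added after the *Mcl1* values had been seen. For emodin against IL4 the brighter probe's difference minus the dimmer one's was -0.54 ± 0.09 for *Mcl1* (limma adjusted p = 0.000408), -0.28 ± 0.07 for *Bad* (0.00433) and -0.27 ± 0.07 for *Bcl2l1* (0.00622). Such a gap was called in 47.3% of genes, with a median of -0.06, so it was common on these arrays. For IL4 against control it was called in 1.89% of genes and in none of these 3 (*Mcl1* 0.14 ± 0.09, limma adjusted p = 0.559). The places of the probes in the transcripts were not used here.

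*Bak1* encodes BAK, the effector that resides in the mitochondrial membrane, and its differences were the smallest of the tested members' with the percentile scaling. It read 5.26, 5.38, 5.45 and 5.37 on control arrays, 5.40, 5.47, 5.54 and 5.49 on IL4 arrays, and 5.16, 5.22, 5.30 and 5.37 on emodin arrays. Only the emodin and IL4 groups failed to overlap, and by a narrow margin. Emodin arrays were lower than IL4 arrays by -0.21 ± 0.07 (limma adjusted p = 0.0208), a call lost without IL4 replicate 3 (0.0589) or emodin replicate 1 (0.0574). With quantile scaling that difference was -0.41 and with spike-ins -1.29, both called. IL4 differed from control by 0.11 ± 0.07 (limma adjusted p = 0.337), and emodin with IL4 from control by -0.10 ± 0.07 (0.240), the latter called at -0.30 with quantile scaling and at -1.06 with spike-ins.

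Among the BH3-only genes, *Bcl2l11* was the member that IL4 raised. BIM, its product, binds all the survival proteins and is a main killer of haematopoietic cells deprived of growth factors. Control arrays read -0.53, -0.73, -0.73 and -0.15, IL4 arrays 0.40, 0.37, 0.20 and 0.71, and emodin arrays 0.86, 0.66, 0.50 and 0.98. Control lay below both treated groups without overlap, and the treated groups overlapped each other. IL4 raised it by 0.96 ± 0.16, 1.94-fold (limma adjusted p = 0.00112), a call kept under all 22 alternatives run for it.

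With emodin *Bcl2l11* stood 0.33 ± 0.16 above IL4, which did not pass the test (95% interval -0.01 to 0.67, limma adjusted p = 0.0812). All 4 same-numbered pairs went upward. With the replicate number as a block the difference was called (limma adjusted p = 0.00178), although the emodin arrays were not treated as paired. It was also called after normexp background correction (0.36, limma adjusted p = 0.0353) and without control replicate 4 (0.0465), IL4 replicate 4 (0.0352) or emodin replicate 3 (0.0445), and turned to -0.74 with spike-ins (0.00570). Against control it was 1.29 ± 0.16 higher (2.44-fold, limma adjusted p = 2.02e-05), and 0.33 with spike-ins (0.171).

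*Bmf*, whose product is tethered to the cytoskeleton through dynein light chain in healthy cells, moved opposite to *Bcl2l11*. It read 0.44, 0.54, 0.10 and 0.93 on control arrays, -0.73, -0.39, -1.18 and -0.20 on IL4 arrays, and -1.53, -1.29, -2.28 and -1.46 on emodin arrays. The 3 groups did not overlap, with replicate 3 lowest in each. IL4 lowered it by -1.13 ± 0.26, 2.18-fold (limma adjusted p = 0.00993), and emodin with IL4 lay a further -1.02 ± 0.26 below IL4 (2.02-fold, limma adjusted p = 0.00427). The total against control was -2.14 ± 0.26, or 4.41-fold (limma adjusted p = 1.88e-05), the largest difference of any tested member. It kept its fall in all 3 comparisons under each scaling, at -1.01 with IL4 and -2.09 for emodin against IL4 with spike-ins.

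*Bid* links death receptors to mitochondria, since caspase 8 cuts its product into the active tBID. It read 3.46, 3.69, 3.68 and 3.50 on control arrays, 3.32, 3.37, 3.37 and 3.35 on IL4 arrays, and 2.09, 1.94, 2.21 and 1.94 on emodin arrays. Emodin arrays lay more than 1 unit below all others. The fall from IL4 was -1.31 ± 0.08, 2.48-fold (limma adjusted p = 9.39e-08), and from control -1.54 ± 0.08, 2.90-fold (limma adjusted p = 2.80e-08), both kept under all 22 alternatives. IL4 and control did not overlap but differed by only -0.23 ± 0.08 (limma adjusted p = 0.0866). That small difference was called with quantile scaling (-0.26, limma adjusted p = 0.0301) and with normexp (-0.27, 0.0200).

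BAD is the BH3-only protein that survival kinases silence by phosphorylation and 14-3-3 proteins then hold in the cytosol. Its brighter probe read 4.92, 5.39, 5.37 and 5.23 on control arrays, 4.89, 5.14, 5.11 and 4.89 on IL4 arrays, and 3.94, 4.01, 4.33 and 4.08 on emodin arrays. Control and IL4 overlapped (difference -0.22 ± 0.12, limma adjusted p = 0.264), and all emodin arrays lay below both. *Bad* fell by 0.92 ± 0.12 on the log2 scale from IL4, 1.89-fold (limma adjusted p = 3.92e-05), and the dimmer probe by 0.64 ± 0.10 (0.000140). From control the fall was -1.14 ± 0.12, 2.20-fold (limma adjusted p = 7.40e-06). These falls of *Bad* were called under all 24 alternatives, spike-ins included (-1.99 from IL4).

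*Bik* encodes a BH3-only protein of the endoplasmic reticulum and was above background on 1 array of 12. Its signal was 662 on IL4 replicate 3 and 5.23 to 19.8 on the other 11 arrays, so no group has a level for it and it was not tested. That array had 407 probes above background on it alone, within the 297 to 536 seen on the control and IL4 arrays.

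**Figure D3:**
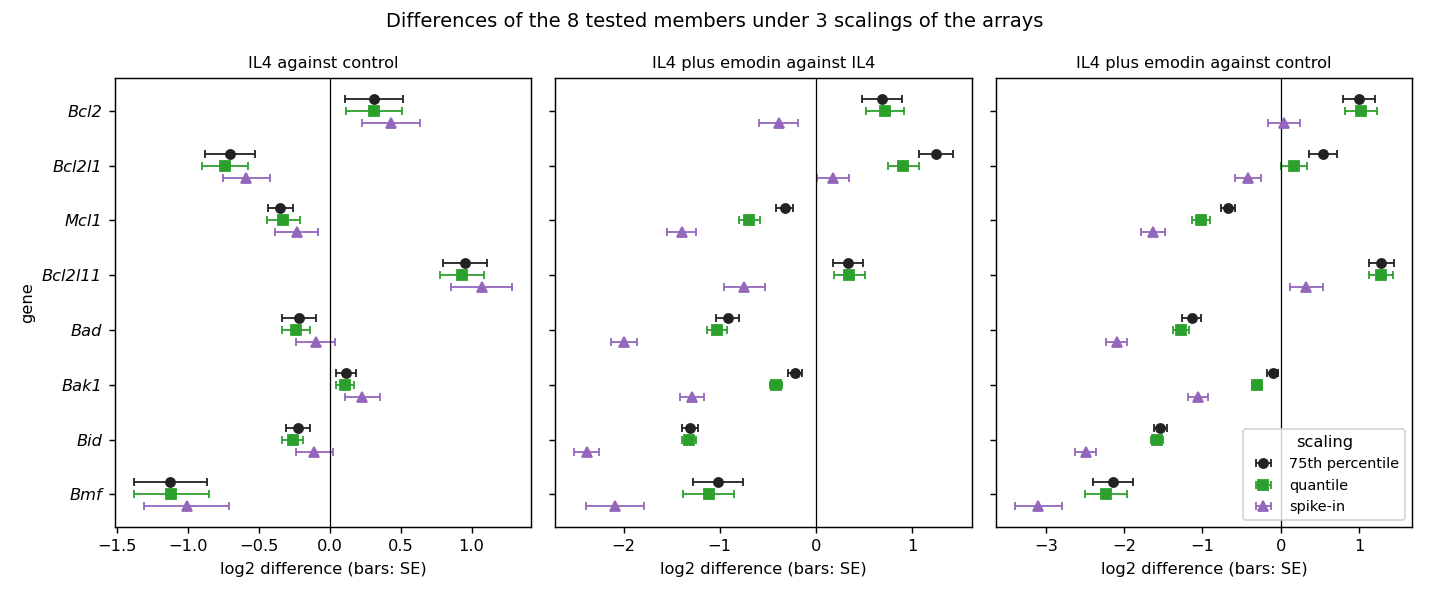
Log2 differences of the 8 tested members (x axis, bars are SE) in the 3 comparisons, under scaling to the array's 75th percentile (circles), quantile scaling (squares) and spike-in scaling (triangles). *Bid*, *Bad* and *Bmf* lie left of 0 in both emodin comparisons under each scaling, whereas *Bcl2* against IL4 lies at 0.69 with the percentile and at -0.39 with spike-ins.

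The gap between a pair of genes on the same array does not change with a factor common to that array, so changes of such gaps were set out as a description without a test. *Bcl2l1* gained 1.57 on *Mcl1* and 2.56 on *Bid* from IL4 to emodin, after losing 0.36 and 0.48 from control to IL4, given in log2 units. The 4 emodin arrays had a *Bcl2l1* minus *Mcl1* gap of 0.20 to 0.72, and the 4 IL4 arrays one of -1.32 to -0.77. *Bcl2l11* gained 2.08 on *Bmf* with IL4 and a further 1.35 with emodin, and in each step no array of a group overlapped the next. *Bcl2* gained 0.66 and then 1.01 on *Mcl1*. The *Mcl1* gaps use its brighter probe.

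Whether the differences themselves varied with the labelled sex was tested over all genes, with 2 arrays per sex and group. No gene passed for either comparison (limma interaction, with 272 of 20860 genes at an unadjusted p below 0.05 for IL4 against control and 507 for emodin against IL4). Both counts are below what that cutoff would give by chance, so the test was conservative. It cannot show that the sexes responded alike. *Bid* fell by 1.33 in females and by 1.29 in males with emodin, and *Bcl2l1* rose by 1.21 and 1.29. For *Bcl2* with IL4 the values were 0.16 and 0.46.

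The genes whose levels ran most like a member's over the 12 arrays were found by Pearson's r among 13167 genes with a symbol, as a description, since the 3 groups drive it. *Bid* ran with *Eef1akmt1* and *Mblac2* (r of 0.998 each) and *Bad* with *Synj2bp* (0.996) and *Uqcc3* (0.995). *Bcl2l11* ran with *Zfp36l1* (0.980) and *Rab15* (0.975), and *Bcl2* with *Suz12* (0.970) and *Usf3* (0.961). *Bcl2l1* ran with *Alg1* and *Slc11a1* (0.966 each) and *Bak1* with *Rcn1* (0.969) and *Renbp* (0.949). The members *Mcl1* and *Bmf* ran with each other (0.974), *Mcl1* next with *Tgfbr1* (0.973) and *Bmf* with *Mcoln3* (0.974).

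Around the members, 75 further genes of the pathway were listed by role, and 69 of these were tested. With IL4, 13 were called higher and 6 lower, and with emodin against IL4, 27 higher and 20 lower, beside 17.5% and 65.9% of all genes in either direction. Of the 3 other survival genes tested, 2 rose with IL4 and all 3 fell with emodin against IL4, where 8.97% of all genes rose and 26.5% fell. *Bcl2a1c* and *Bcl2a1d*, copies of the inducible survival gene A1, rose by 0.96 ± 0.12 and 0.79 ± 0.11 with IL4 (limma adjusted p = 0.000194 and 0.000413) and fell by 1.28 ± 0.12 and 1.08 ± 0.11 with emodin (2.99e-06 and 5.45e-06). These copies are near-identical, so which of them a probe reads is uncertain, and their 2 calls may not be separate. The counts of other survival genes set beside all genes may therefore not be counts of separate genes. *Bcl2l2*, which encodes BCL-W, differed by 0.02 ± 0.09 with IL4 (limma adjusted p = 0.924) and fell by 0.59 ± 0.09 with emodin (0.000113). *Bcl2a1a*, *Bcl2a1b* and *Bcl2l10* were not tested.

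Both tested BH3-only genes outside the list, known as p53 targets, rose with emodin. *Pmaip1* (NOXA, which binds MCL1) rose by 1.77 ± 0.10 against IL4 and *Bbc3* (PUMA) by 1.66 ± 0.10 (limma adjusted p = 2.73e-08 and 9.29e-08), and both stayed higher with spike-ins at 0.70 and 0.58. IL4 lowered *Pmaip1* by -0.39 ± 0.10 (limma adjusted p = 0.0148), a call lost with spike-ins (-0.27, 0.249), and *Bbc3* differed by -0.24 ± 0.10 (0.156). *Bax*, the cytosolic effector, rose with emodin by 0.87 ± 0.12 (limma adjusted p = 4.52e-05) but lay at -0.21 with spike-ins, and differed by -0.19 ± 0.12 with IL4 (0.304). *Bok* differed by 1.10 ± 0.37 with IL4 (limma adjusted p = 0.0656, and 7.67e-05 with the replicate number as a block) and fell by 1.05 ± 0.37 with emodin (0.0264). The *Bok* fall was not called without IL4 replicate 3 (limma adjusted p = 0.0759), IL4 replicate 4 or emodin replicate 1, where it was -0.71. *Hrk* was not tested.

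**Figure D4:**
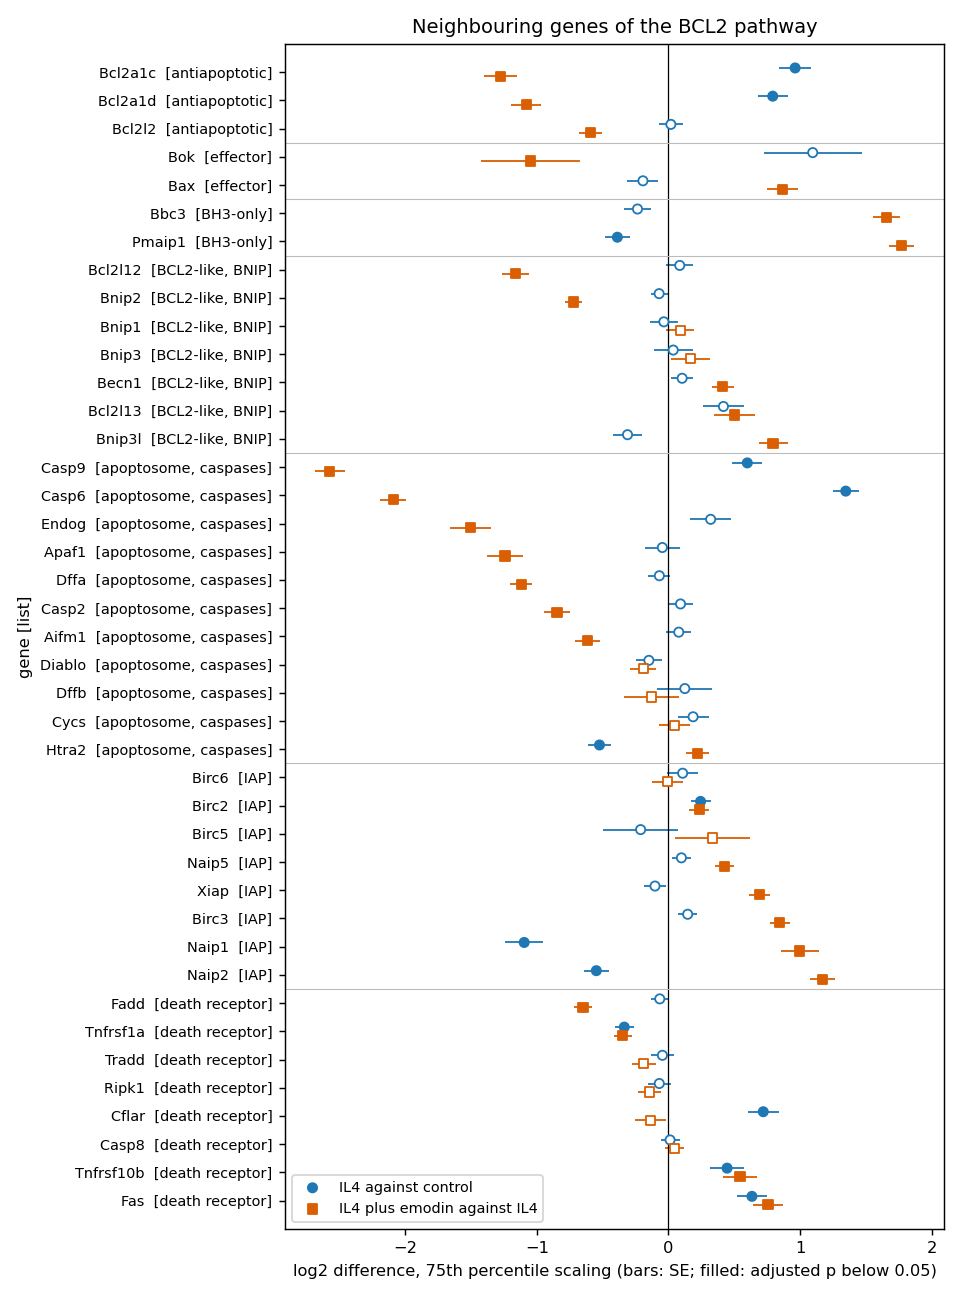
Log2 differences (x axis, bars are SE, n = 4 per group) of 41 tested genes of the pathway outside the 9 members, grouped by list, for IL4 against control (circles) and emodin with IL4 against IL4 (squares), filled where the limma adjusted p was below 0.05. *Casp9* and *Casp6* lie right of 0 with IL4 and at -2.57 and -2.09 with emodin.

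Downstream of the effectors, 11 apoptosome, caspase and released mitochondrial genes were tested. With emodin 7 were lower and 1 higher (median -0.85), beside 26.5% and 39.4% of all genes and a median of 0.17, and the single rise was lost in 6 of the 12 fits that left out an array. With IL4 2 were higher and 1 lower, beside 8.97% and 8.55% of all genes. *Casp9*, the initiator caspase of the apoptosome, read 5.14, 5.26, 5.19 and 5.10 on IL4 arrays and 2.78, 2.46, 2.79 and 2.37 on emodin arrays, a fall of 2.57 ± 0.11 (limma adjusted p = 5.92e-09) after a rise of 0.60 ± 0.11 with IL4 (0.00299). *Casp6*, another caspase gene, rose with IL4 by 1.35 ± 0.10 (limma adjusted p = 2.26e-06) and fell with emodin by 2.09 ± 0.10 (9.97e-09). *Apaf1*, whose product is the scaffold of the apoptosome, differed by -0.05 ± 0.13 with IL4 (limma adjusted p = 0.860) and fell by 1.24 ± 0.13 with emodin (7.30e-06). *Endog*, a mitochondrial nuclease, fell by 1.50 ± 0.16 with emodin (limma adjusted p = 5.53e-06), and its IL4 difference of 0.32 ± 0.16 (0.198) was called with the replicate block (0.0257).

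Of 8 genes for inhibitors of apoptosis proteins, 6 were called higher with emodin against IL4 and none lower, with a median of 0.56, where 39.4% of all genes were higher and 26.5% lower, a direction that spike-in scaling turned (none higher and 5 lower). *Naip2* rose by 1.17 ± 0.10, *Naip1* by 1.00 ± 0.14, *Birc3* by 0.85 ± 0.07 and *Xiap*, the direct caspase inhibitor, by 0.69 ± 0.08. With spike-ins these lay at 0.10, -0.076, -0.23 and -0.38. With IL4 alone *Naip1* fell by 1.10 ± 0.14 and *Naip2* by 0.55 ± 0.10 (limma adjusted p = 0.000203 and 0.00171).

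The death receptor route into BID had 8 tested genes, of which 3 were higher and 1 lower with IL4, and 2 higher and 2 lower with emodin. The 4 called with emodin are a smaller share than the 65.9% of all genes, and the 4 called with IL4 a larger one than the 17.5% of all genes. Of the 4 called with IL4, *Tnfrsf10b* (0.45 ± 0.13, limma adjusted p = 0.0352) kept its call in 8 of the 12 fits that left out an array. With spike-ins it was not called (0.56, limma adjusted p = 0.0703). *Fas* rose by 0.63 ± 0.12 with IL4 (limma adjusted p = 0.00259) and by 0.76 ± 0.12 with emodin (0.000130), and *Cflar*, which encodes the caspase 8 inhibitor FLIP, by 0.72 ± 0.12 with IL4 (0.00117). *Tnfrsf10b* rose with emodin by 0.54 ± 0.13 (limma adjusted p = 0.00302). The adaptor *Fadd* fell by 0.65 ± 0.07 and *Tnfrsf1a* by 0.35 ± 0.07 with emodin (limma adjusted p = 5.31e-06 and 0.00107), the latter after -0.34 ± 0.07 with IL4 (0.00626), which was not called with spike-ins (-0.22, 0.302). With spike-ins the emodin values of *Fas* and *Tnfrsf10b* turned to -0.32 and -0.53.

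Of 7 tested BCL2-like and BNIP genes none was called with IL4 by limma, while *Bcl2l13* (0.42) and *Bnip3l* (-0.31) were with the replicate block (adjusted p = 0.0148 and 0.0393). With emodin 3 were higher and 2 lower, close to the 39.4% and 26.5% of all genes. *Bcl2l12* fell by 1.16 ± 0.10 and *Bnip2* by 0.72 ± 0.07 (limma adjusted p = 1.35e-06 and 1.75e-06). *Bnip3l*, a mitophagy receptor, rose by 0.79 ± 0.11 and *Bcl2l13* by 0.50 ± 0.16 (5.47e-05 and 0.0131), turning to -0.28 and -0.57 with spike-ins.

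Among 28 genes for kinases, ligases and partners that act on the members, 5 were higher and 1 lower with IL4 (7 and 3 with the replicate block, 3 and none with spike-ins), and 12 higher and 5 lower with emodin (3 and 6 after quantile scaling, none and 26 with spike-ins). These counts stand beside 17.5% of all genes called with IL4 and 65.9% with emodin, so neither sets the group apart. The IL4 rises fell from 5 to 3 without control replicate 2 or 3 or IL4 replicate 1 or 4, and the IL4 fall was lost without control replicate 1 or 3 or IL4 replicate 2 or 4. The kinase genes *Pim3* and *Pim1*, whose products phosphorylate BAD, rose with IL4 by 1.04 ± 0.07 and 0.91 ± 0.10 (limma adjusted p = 1.26e-06 and 5.79e-05). *Marchf5*, a mitochondrial ubiquitin ligase, rose with emodin by 1.06 ± 0.08 and *Pim1* by a further 0.89 ± 0.10 (limma adjusted p = 3.12e-07 and 1.04e-05), values that were -0.0091 and -0.18 with spike-ins. *Dynll1*, a dynein light chain gene, fell by 1.19 ± 0.16 and the ligase adaptor *Btrc* by 1.18 ± 0.10 with emodin (limma adjusted p = 5.13e-05 and 1.39e-06), under each scaling. The count of emodin rises in this group fell to 6 without IL4 replicate 4 or emodin replicate 2, and to 7 without IL4 replicate 1 or emodin replicate 4.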

How the data were processed

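The 12 arrays are 1-colour (Cy3) Agilent mouse arrays, 4 per group. The deposited scanner files hold spot intensity, background-subtracted within the array by Agilent Feature Extraction 10.7.3.1, per the file headers. The deposited value table holds log2 values, which recomputation from the scanner files (r of 0.9999 or above on every array) showed to be quantile-normalized and centred on each probe's median. It served as an alternative. Its column medians ran from -0.008 to 0.014.

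The members and the lists were chosen with earlier results of these data known. Control and outlier spots were left out, spots of a probe averaged, and log2 intensity taken minus the array's 75th percentile. Probes above background throughout the 4 arrays of any group were kept (27705), and each gene was read from its probe with the highest mean. By RefSeq transcript 27509 probes had 1 symbol, and 28172 stayed without a name. The models were run in limma 3.58.1 (R 4.3.3) over all 12 arrays (3 group means, 9 residual degrees of freedom, two-sided, Benjamini-Hochberg over 20860 genes) and called at an adjusted p below 0.05. Single array measures were compared with exact permutation tests. The packages data.table (1.17.8) and pandas (2.3.3) handled the values, and matplotlib 3.10.9 in Python 3.11.15 drew the figures. The fit was also run on simulated data with independent noise on each array. That run covers no likeness of same-numbered arrays and no slide effect, and its outcome is not reported here. Precision is limited by 4 arrays per group.

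Named were all members; from each pathway list up to 4 genes with the largest called emodin difference and up to 2 with the largest called IL4 difference; the rest of the family; and the 2 genes most like each tested member. Some listed genes are not reported here and are left out of the list counts. Alternatives were quantile and spike-in scaling, normexp with an offset of 50 (on median spot signal), the deposited table, no filter, outlier spots kept, only the groups compared, sex, replicate block, intensity trend, other probes, and each array left out.

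Groups share replicate numbers 1 to 4. Deviations of same-numbered control and IL4 arrays correlated at 0.524, 0.311, 0.334 and 0.436. That likeness by number comes from the data and not from the labels. In every group the replicate number was also the slide column of the array. A shared origin of same-numbered samples and a shared column therefore cannot be told apart. Replicate 2 of the emodin arrays correlated only weakly with its own number (0.0934 with IL4, 0.0559 with control). Against control another number correlated better with it, so the emodin arrays were not treated as paired. The main fit used no pairing in any comparison, IL4 against control included. Its standard errors and p-values leave the likeness by number out, and the fit with a replicate block is given as an alternative. No unused column of per-sample values was present.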

Additional observations from a re-analysis of the deposited data

How the results depend on the processing

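For each tested member and comparison, 22 to 24 alternatives were run, and *Bid*, *Bad* and *Bmf* kept their call and direction under all of them in both emodin comparisons, as did *Bcl2l11* and *Bmf* for IL4 against control. Spike-in scaling moved most. With it 0 members were called higher in either emodin comparison (6 were lower in each; 735 and 863 genes were still called higher by limma). Against IL4, *Bcl2* lay at -0.39, *Bcl2l1* at 0.18, *Bcl2l11* at -0.74, *Marchf5* at -0.0091, *Pim1* at -0.18, *Naip1* at -0.076, *Birc3* at -0.23, *Xiap* at -0.38, *Bnip3l* at -0.28, *Bcl2l13* at -0.57, *Bax* at -0.21, *Fas* at -0.32 and *Tnfrsf10b* at -0.53. Against control, *Bcl2* lay at 0.042, *Bcl2l1* at -0.41, *Bcl2l11* at 0.33, *Bak1* at -1.06, *Naip2* at -0.34, *Xiap* at -0.37, *Bnip3l* at -0.47, *Bcl2l13* at -0.035, *Bok* at -0.91, *Bax* at -0.28, *Pim3* at -0.035 and *Cflar* at -0.37. The cause was not tested. For IL4 against control, spike-ins gave *Mcl1* at -0.23, *Pmaip1* at -0.27, *Tnfrsf1a* at -0.22, *Btrc* at -0.26 and *Tnfrsf10b* at 0.56 (no longer called) and 2413 genes called of the main 3656, normexp 5536 and no filter on dim probes 7321. No filter gave 22743 for emodin against IL4 and 19856 against control, with more genes tested.

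Quantile scaling and the deposited table each gave, for IL4 against control, *Mcl1* at -0.33 (no longer called) and *Bid* at -0.26 (called), and, for emodin with IL4 against control, *Bcl2l1* at 0.17 and 0.16 (not called) and *Bak1* at -0.30 and -0.31 (called). Normexp gave *Bid* at -0.27 with IL4, *Bcl2l11* at 0.36 for emodin against IL4 and *Bak1* at -0.21 for emodin against control, each now called. The dimmer *Mcl1* probe gave 0.21 against IL4 and -0.28 against control, and the mean of both probes -0.055 against IL4. With the replicate number as a block, *Bcl2l11* for emodin against IL4 was called at the same 0.33 (limma adjusted p = 0.00178), no other member call changed in any comparison, and 5299, 15094 and 14512 genes were called for IL4 against control, emodin against IL4 and emodin against control. Each array correlated best with its own number except in emodin against control, where replicate 2 did not.

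Leaving out each array in turn gave, for IL4 against control, 0.081 to 0.44 for *Bcl2* (not called in any), -0.86 to -0.57 for *Bcl2l1* and -0.40 to -0.30 for *Mcl1*; for emodin against IL4, 0.25 to 0.43 for *Bcl2l11* and -0.25 to -0.18 for *Bak1*; and, for emodin against control, 0.39 to 0.68 for *Bcl2l1*. No member value was set apart from its group by Dixon's criterion (36 groups of 4 tested). The emodin comparisons are limited by the slide they share with no other group, by the percentile they are scaled to, and by 4 arrays a group. *Bik* lies below what these arrays read.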
